A study of Mus musculus with 8 samples.

Results

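The genes described here are 7 that mutations in patients or in mice link to left ventricular noncompaction, a cardiomyopathy with a thick trabecular and a thin compact wall, and that belong neither to the Notch pathway nor to the sarcomere's contractile filaments: Prdm16, Lmna, Ldb3, Dtna, Taz, Fkbp1a and Mycn. The rule names the genes and uses no measured value, although the set was proposed with earlier results of these data known. All 7 were matched by symbol to the identifiers of the 13869 genes of the deposited table. RNA of E14.5 mouse heart ventricles was sequenced as 4 libraries from embryos labelled Mib1flox; TnT-Cre and 4 libraries from WT siblings. In the mutants Cre recombinase is driven by the cardiac troponin T promoter, which is active in cardiomyocytes, so the floxed Mib1 allele remains intact in other cell types. Ventricles of 16 mutant and 16 wild-type hearts were pooled into the 4 libraries of each group. The labels do not say whether the siblings carried Cre or a floxed allele, nor whether pools came from separate litters, so p-values measure the spread between pools.

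The wall of the embryonic ventricle has an outer compact layer, where cardiomyocytes divide, and inner trabeculae, which differentiate earlier and later merge into the wall. Noncompaction is the persistence of deep trabeculae over a thin compact layer. Known genes for it act in several compartments of the cardiomyocyte: the nucleus, the Z-disc that anchors actin filaments, the membrane complex around dystrophin, the mitochondrial inner membrane and the calcium release channels. MIB1 is an E3 ubiquitin ligase that Notch ligands need to signal.

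The libraries held 6307634 to 11506082 recovered counts, and levels are given as CPM (counts per 1000000, after the authors' library scaling). A floor of 3 counts stood at 0.265 to 0.472 CPM, for counting error only. Mib1 (ENSMUSG00000024294) averaged 100 ± 5.33 CPM in the mutants and 161 ± 7.48 CPM in wild type (SD, n = 4 each), a fall of 0.68 ± 0.06 on the log2 scale (SE; limma adjusted p = 8.62e-06). Of all 13740 genes tested, 308 (2.24%) were called by limma at an adjusted p under 0.05. Of all tested genes, 0.99% were called as higher and 1.25% as lower in the mutants. Cardiomyocyte markers were abundant in both groups, 12 of 12 being tested and none at 0.

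None of the 7 genes was called. Lmna and Prdm16 were the nearest to the threshold, each higher in every mutant library than in any wild-type library, at 1.25-fold and 1.22-fold. The background was 2.24% of all genes called, 8.92% with groups that did not overlap (4.27% higher and 4.65% lower in the mutants) and 14.8% at an unadjusted p under 0.05. At an adjusted p under 0.1 it was 4.01%, against 2 of the 7 members. The same shares are the background for the counts in the gene lists below. Among the members, 2 of 7 did not overlap and the same 2 had an unadjusted p under 0.05, while voom, the other method run, also called 0 of the members and 2.3% of all genes. Of the 7, 5 lay above 0 and 2 below, with a median log2 difference of 0.06, against 0 over all genes tested. The median size of the difference was 0.10 for the members and 0.10 for all genes tested. Markers of other cell types also differed between these libraries (values in the last paragraph). In bulk ventricles fewer cells of a type and less RNA per cell cannot be told apart.

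**Figure D1:**
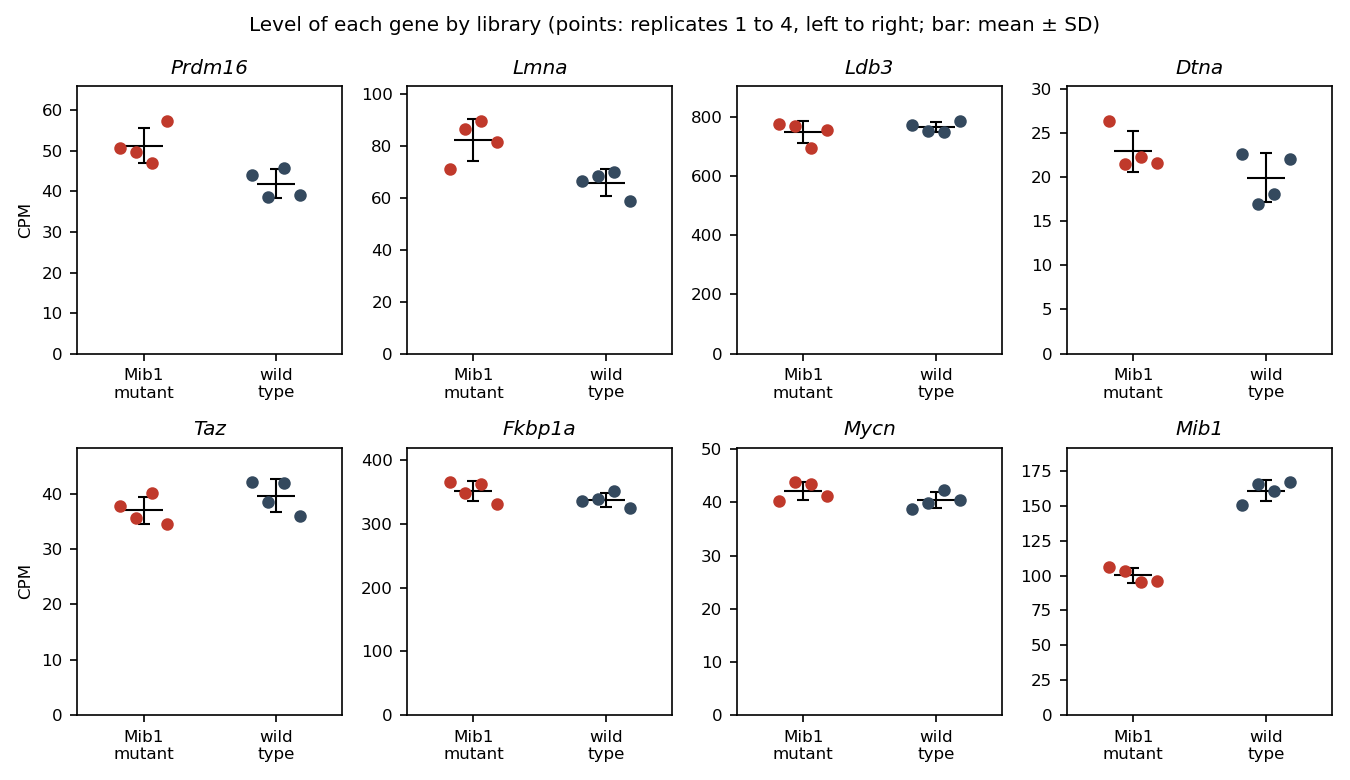
Level in CPM of the 7 genes and of Mib1 in each of the 4 mutant libraries (red) and the 4 wild-type libraries (dark), with the mean and SD as a bar. For Lmna and Prdm16 every mutant library lies above every wild-type library, for Mib1 every mutant library lies below, and for the other genes the groups overlap.

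Among the transcription factors, Prdm16 (ENSMUSG00000039410, chromosome 4) encodes a zinc-finger protein with a PR domain that recruits co-repressors and co-activators, and its loss in the mouse heart thins the compact wall. It stood at 50.8, 49.9, 47.1 and 57.4 CPM in the mutant libraries, against 44.0, 38.7, 45.8 and 39.25 CPM in the wild-type libraries, from 291 to 576 counts. The lowest mutant pool and the highest wild-type pool were 47.1 and 45.8 CPM, so the gap between the groups was narrow. The means were 51.3 ± 4.37 CPM in mutants and 41.9 ± 3.50 CPM in wild type (SD, n = 4 each). The log2 difference was 0.29 ± 0.08 (SE), with a 95% interval of 0.12 to 0.46. Its limma adjusted p was 0.0785, and its p ranked 438 among all genes tested. It was not called unless mutant replicate 3 was left out (adjusted p = 0.0424), and over all alternatives its adjusted p ran from 0.0424 to 0.230.

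Of 19 tested genes of the PRDM family and of PRDM16 partners, none rose or fell by limma or by voom, and 2 had an unadjusted p under 0.05. Their median log2 difference was −0.01. Mecom, the closest paralog of Prdm16, averaged 44.8 ± 1.67 CPM in mutants and 44.9 ± 0.77 CPM in wild type (log2 difference −0.01 ± 0.06, SE; adjusted p = 0.982 by limma). The smallest p belonged to Cebpb, which encodes a C/EBP factor that PRDM16 binds in fat cells, at 2.34 ± 0.50 CPM in mutants and 3.32 ± 0.43 CPM in wild type (log2 difference −0.51 ± 0.22, SE; limma adjusted p = 0.297).

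Mycn (ENSMUSG00000037169, chromosome 12) encodes N-MYC, a growth-promoting factor of the compact layer whose deletion from mouse myocardium leaves a thin wall. It stood at 40.3, 43.8, 43.4 and 41.2 CPM in the mutant libraries, against 38.8, 40.0, 42.4 and 40.5 CPM in the wild-type libraries. These values overlapped and the spread within each group was small, at 42.2 ± 1.68 CPM in mutants and 40.4 ± 1.5 CPM in wild type (SD, n = 4 each). On the log2 scale the difference came to 0.06 ± 0.06 (SE; limma adjusted p = 0.705), with a 95% interval of −0.07 to 0.20. The residual SD of Mycn lay at the 6.1 percentile of all genes tested.

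The MYC network of partners, antagonists and regulators held 14 tested genes. None was called by limma or voom and 0 had an unadjusted p under 0.05, with a median of −0.01. Myc averaged 21.4 ± 1.66 CPM in mutants and 22.2 ± 2.57 CPM in wild type (log2 difference −0.05 ± 0.10, SE). The smallest p in the network was that of Mga, a MAX partner gene, with a log2 difference of 0.12 ± 0.08 (SE; limma adjusted p = 0.484).

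Of 18 genes of growth and ribosome production that MYC proteins are known to drive, 1 rose and none fell, and the median was −0.03. The gene that rose was Id2, which encodes an inhibitor of basic helix-loop-helix factors and is also known as a target of BMP signalling. Id2 stood at 104, 93.1, 109 and 104 CPM in the mutant libraries, against 59.8, 59.3, 71.3 and 67.5 CPM in the wild-type libraries. The groups were far apart, with a log2 difference of 0.67 ± 0.07 (SE; limma adjusted p = 0.000128), and the call held in all 8 fits that left out a library. The nucleolar genes and the cyclin genes of the list did not pass the test. Ccnd2, a D-type cyclin gene, stood at −0.16 ± 0.06 (SE; limma adjusted p = 0.203) and Fbl, the fibrillarin gene of ribosomal RNA processing, at −0.31 ± 0.14 (SE; limma adjusted p = 0.299).

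At the nuclear envelope, Lmna (ENSMUSG00000028063, chromosome 3) encodes the A-type lamins, lamin A and lamin C, which are made by alternative splicing and which counts per gene cannot tell apart. Lmna stood at 71.2, 86.4, 89.5 and 81.2 CPM in the mutant libraries, against 66.3, 68.3, 69.9 and 58.6 CPM in the wild-type libraries, from 444 to 807 counts. Mutant replicate 1 lay just above the highest wild-type library, and the other 3 mutant libraries were well above it. The means were 82.1 ± 8.03 CPM in mutants and 65.8 ± 5.02 CPM in wild type (SD, n = 4 each). The log2 difference was 0.32 ± 0.08 (SE), with a 95% interval of 0.15 to 0.485. The limma adjusted p was 0.0537, just over the threshold, and the unadjusted p was 0.00124, rank 316 among all genes tested. The exact two-sided permutation p was 0.0286 for Lmna and 0.0286 for Prdm16, the minimum for libraries in 2 groups of 4.

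Lmna was called under 7 of 20 alternative settings. Without mutant replicate 1, the mutant library lowest in Lmna, its limma adjusted p was 0.00788 and its log2 difference 0.38. This was the only 1 of the 8 fits leaving out a library that called Lmna. In the other such fits the adjusted p ran from 0.0791 to 0.159. With the replicate number as a block the limma adjusted p was 0.0493. Same-numbered libraries correlated at only −0.04 to 0.10 after removal of group means. These values give the block little basis, although they cannot show that pools were unpaired. Over all alternatives the limma adjusted p of Lmna ran from 0.00788 to 0.183. The direction was the same under all 20 settings. Because the groups did not overlap, leaving out a library could not reverse it. Several other settings change only the variance model or the genes tested, so the shared direction is no separate evidence.

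The other lamin genes differed little between the genotypes. Lmnb1, the lamin B1 gene, averaged 268 ± 2.62 CPM in mutants and 264 ± 5.48 CPM in wild type (log2 difference 0.02 ± 0.04, SE; limma adjusted p = 0.867). Lmnb2, the lamin B2 gene, averaged 43.6 ± 4.62 CPM in mutants and 44.9 ± 1.86 CPM in wild type (log2 difference −0.05 ± 0.08, SE; limma adjusted p = 0.834). Lmna made up 17.8, 20.2, 21.1 and 19.1% of the summed lamin level per kb of transcript in the mutant libraries, against 16.8, 17.3, 16.9 and 14.8% in the wild-type libraries. Every mutant share exceeded every wild-type share, also when the median transcript length was used in place of the longest.

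Of 18 tested genes of the nuclear lamina and envelope, limma and voom called none (median −0.01). An unadjusted p under 0.05 was found for 3, 1 of them higher and 2 lower. Lemd2, which encodes a LEM-domain protein of the inner nuclear membrane, had the smallest p, at 25.3 ± 2.72 CPM in mutants and 29.6 ± 1.74 CPM in wild type (log2 difference −0.23 ± 0.09, SE; limma adjusted p = 0.236). The LINC complex tethers the lamina to the cytoskeleton, and its genes went both ways. Syne2 stood at 0.16 ± 0.07 and Syne3 at −0.33 ± 0.15 (SE, limma adjusted p = 0.299 and 0.327). Sun1 stood at −0.07 ± 0.06 and Sun2 at 0.10 ± 0.06 (SE, limma adjusted p = 0.656 and 0.529). None of 6 genes that farnesylate, cleave or methylate prelamin A, or bind it, was called by limma or voom, and 0 had an unadjusted p under 0.05. Zmpste24, the protease gene of prelamin A cleavage, averaged 52.1 ± 6.02 CPM in mutants and 48.8 ± 3.34 CPM in wild type.

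**Figure D2:**
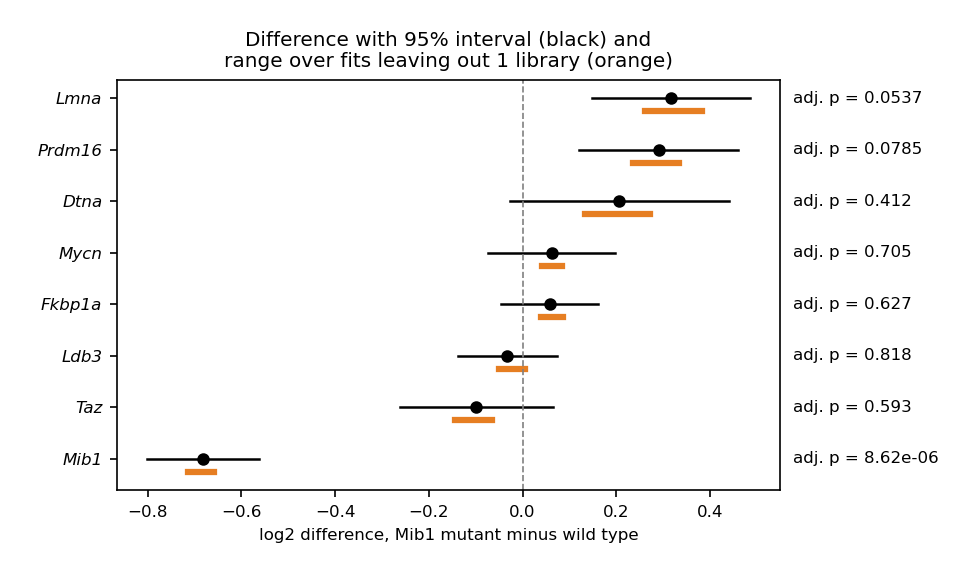
Log2 difference of each gene, Mib1 mutant minus wild type, with the 95% interval of the limma fit in black and, in orange, the range over the 8 fits that each left out 1 library; adjusted p is printed at the right. The intervals of Lmna and Prdm16 lie above 0 while their adjusted p values of 0.0537 and 0.0785 miss the threshold, and the intervals of the other 5 genes include 0.

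The upstream sequences of Prdm16 and Lmna are shown because these were the members whose groups did not overlap. They are the 250 bases before the most upstream transcription start given for each gene in the RefSeq promoter table (GRCm38.p6), at chr4:154636874-154637123 and chr3:88503353-88503602, both on the minus strand. Capitals mark the GC-box letters GGGCGG or their reverse complement, a motif chosen after the windows had been read.
Prdm16: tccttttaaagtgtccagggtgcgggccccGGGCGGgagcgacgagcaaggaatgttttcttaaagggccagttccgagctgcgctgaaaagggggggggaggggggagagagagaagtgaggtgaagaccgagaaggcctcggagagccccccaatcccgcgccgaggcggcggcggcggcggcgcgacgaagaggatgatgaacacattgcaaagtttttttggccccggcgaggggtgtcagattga
Lmna: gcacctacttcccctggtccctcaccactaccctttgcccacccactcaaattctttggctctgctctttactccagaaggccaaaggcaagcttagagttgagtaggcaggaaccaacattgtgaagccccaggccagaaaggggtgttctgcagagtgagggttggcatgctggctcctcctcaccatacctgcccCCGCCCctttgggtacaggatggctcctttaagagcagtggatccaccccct
Each window held 1 GC-box match, 220 bases before the start in Prdm16 and 52 bases before it in Lmna. In the table's windows, which reach 50 bases past the start, 4 of the 8 windows of 6 members held the GC box on either strand, against 35.7% of all windows. The MYC-type E-box CACGTG was found in 0 of the 8 windows, against 7.15% of all, and the RBPJ-type letters TGGGAA, which the DNA-binding partner of Notch recognises, in 0 of the 8, against 25.6%. With only the GC box present in these windows, no matches of different motifs overlapped there, and a missing match says only that these letters are not in these windows.

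At the Z-disc, Ldb3 (ENSMUSG00000021798, chromosome 14) encodes ZASP, also called cypher, a PDZ-LIM adaptor that binds alpha-actinin. It stood at 775, 769, 693 and 755 CPM in the mutant libraries, against 771, 753, 748 and 786 CPM in the wild-type libraries. The groups overlapped almost wholly, mutant replicate 3 being the lowest library. The means were 748 ± 38.0 CPM in mutants and 764 ± 17.2 CPM in wild type (SD, n = 4 each). Mutants differed from wild type by −0.03 ± 0.05 on the log2 scale (SE; limma adjusted p = 0.818). Its 95% interval of −0.14 to 0.07 was among the narrowest of the 7 genes. Without mutant replicate 3 the difference was 0.00, on the other side of 0.

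Of 18 tested genes of the PDZ-LIM family and the Z-disc, 1 rose and none fell, with a median of 0.00 and 4 genes at an unadjusted p under 0.05. The gene that rose was Pdlim4, a PDZ-LIM gene of low level, at 3.79, 2.67, 4.19 and 2.99 CPM in the mutant libraries, against 1.44, 1.67, 1.89 and 1.83 CPM in the wild-type libraries. The groups did not overlap, although the lowest library held 10 counts, and they differed by 0.95 ± 0.23 on the log2 scale (SE; limma adjusted p = 0.0438). The call was lost in all 8 fits that left out a library, with adjusted p values up to 0.123, and with the replicate number as a block (adjusted p = 0.0833). Of the other PDZ-LIM genes listed, Pdlim1 stood at 0.19 ± 0.05 (SE; limma adjusted p = 0.0755), Pdlim3 at 0.27 ± 0.08 (SE; limma adjusted p = 0.113) and Pdlim5 at 0.04 ± 0.07 (SE; limma adjusted p = 0.855). Pdlim2 stood at 0.28 ± 0.25 (SE; limma adjusted p = 0.658) and Pdlim7 at 0.15 ± 0.08 (SE; limma adjusted p = 0.422). Csrp3, the gene of the Z-disc stretch-sensor protein MLP, stood at −0.13 ± 0.05 (SE; limma adjusted p = 0.277).

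In the dystrophin complex, Dtna (ENSMUSG00000024302, chromosome 18) encodes alpha-dystrobrevin, a cytoplasmic scaffold that joins dystrophin to the syntrophins. It stood at 26.4, 21.5, 22.3 and 21.55 CPM in the mutant libraries, against 22.6, 17.0, 18.1 and 22.0 CPM in the wild-type libraries, from 115 to 299 counts. Mutant replicate 1 was set apart from the other mutant libraries, and 2 wild-type libraries lay within the mutant range. The means were 22.9 ± 2.32 CPM in mutants and 19.9 ± 2.80 CPM in wild type (SD, n = 4 each). On the log2 scale the difference came to 0.21 ± 0.11 (SE; limma adjusted p = 0.412), with a 95% interval of −0.03 to 0.44, the widest of the 7. Without mutant replicate 1 the log2 difference was 0.14, and without wild-type replicate 2 it was 0.13. Dtna shares its chromosome with Mib1, and any bearing of this on its level was not tested.

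Its paralog Dtnb, the beta-dystrobrevin gene, averaged 14.7 ± 0.82 CPM in mutants and 15.4 ± 0.82 CPM in wild type (log2 difference −0.06 ± 0.09, SE; limma adjusted p = 0.808). Of 21 tested genes of the dystrophin complex, limma and voom called none (median −0.03). An unadjusted p under 0.05 was found for 5, 3 of them higher and 2 lower, against 14.8% of all genes tested. Sntg2, a gamma-syntrophin gene, had the smallest p, at 3.55 ± 0.85 CPM in mutants and 1.91 ± 0.33 CPM in wild type (log2 difference 0.86 ± 0.23, SE; limma adjusted p = 0.0798). The core genes Dmd, which encodes dystrophin, and Dag1, which encodes dystroglycan, stood at 0.13 ± 0.08 and 0.13 ± 0.05 (SE; limma adjusted p = 0.485 and 0.190). The muscle caveolin gene Cav3 stood at −0.21 ± 0.06 and Sgca, the alpha-sarcoglycan gene, at −0.43 ± 0.13 (SE; limma adjusted p = 0.0925 and 0.115).

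In the mitochondrion, Taz (ENSMUSG00000009995, X chromosome) encodes tafazzin, the transacylase that remodels cardiolipin and is mutated in Barth syndrome. It is not Wwtr1, the Hippo pathway gene whose product is also called TAZ. Taz stood at 37.8, 35.6, 40.1 and 34.5 CPM in the mutant libraries, against 42.1, 38.5, 42.05 and 35.9 CPM in the wild-type libraries. The ranges overlapped over most of their length. The means were 37.0 ± 2.48 CPM in mutants and 39.65 ± 2.98 CPM in wild type (SD, n = 4 each). Mutants differed from wild type by −0.10 ± 0.08 on the log2 scale (SE; limma adjusted p = 0.593), with a 95% interval of −0.26 to 0.06.

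Of 19 tested genes of cardiolipin synthesis and remodelling, 1 rose and 1 fell, the median was −0.05, and 13 lay below 0. Lclat1 rose. It encodes a lysocardiolipin acyltransferase that, unlike tafazzin, uses acyl-CoA and has been located to the endoplasmic reticulum and its mitochondrial contacts. Lclat1 stood at 224, 231, 202 and 211 CPM in the mutant libraries, against 180, 164, 162 and 171 CPM in the wild-type libraries. All mutant libraries lay above all wild-type libraries, by 0.36 ± 0.06 on the log2 scale (SE; limma adjusted p = 0.00287). The call held in all 8 fits with a library left out. Hadha fell. It encodes the alpha subunit of the mitochondrial trifunctional protein of fatty acid oxidation, which can also acylate monolysocardiolipin. Hadha averaged 425 ± 11.0 CPM in mutants and 483 ± 9.15 CPM in wild type (log2 difference −0.18 ± 0.04, SE; limma adjusted p = 0.0420). The Hadha call was lost in 6 of the 8 fits that left out a library (adjusted p up to 0.149) and with the replicate number as a block (adjusted p = 0.113). Phb, which encodes a prohibitin of the inner membrane, stood at −0.20 ± 0.05 (SE; limma adjusted p = 0.0558). Dnajc19, another gene of dilated cardiomyopathy with noncompaction in patients, stood at −0.15 ± 0.08 (SE; limma adjusted p = 0.409).

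Fkbp1a (ENSMUSG00000032966, chromosome 2) encodes FKBP12, a prolyl isomerase that binds the ryanodine receptors and the type I receptors of the TGF-beta and BMP family, and mice that lack it form deep trabeculae. It stood at 365, 348, 363 and 332 CPM in the mutant libraries, against 336, 339, 352 and 326 CPM in the wild-type libraries. The groups overlapped, with means of 352 ± 15.4 CPM in mutants and 338 ± 10.7 CPM in wild type (SD, n = 4 each). On the log2 scale the difference came to 0.06 ± 0.05 (SE; limma adjusted p = 0.627), with a 95% interval of −0.05 to 0.16. Its paralog Fkbp1b, which encodes FKBP12.6, was measured at 4.24 ± 0.53 CPM in mutants and 4.91 ± 0.47 CPM in wild type (log2 difference −0.21 ± 0.16, SE; limma adjusted p = 0.591). Per kb of transcript Fkbp1a made up 97.6 to 98.35% of the pair in mutant libraries and 97.3 to 97.9% in wild-type libraries.

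Of 13 immunophilin genes of the FKBP family, limma and voom called none, and 2 had an unadjusted p under 0.05, both lower (median −0.04). Fkbp9, a family member of the endoplasmic reticulum, averaged 252 ± 9.18 CPM in mutants and 283 ± 2.26 CPM in wild type (log2 difference −0.17 ± 0.04, SE; limma adjusted p = 0.0694). Of 12 tested genes of FKBP12 binding targets, none was called by either method, and 2 had an unadjusted p under 0.05, both higher (median 0.06). Their log2 differences ran from −0.63 to 0.27, with 8 above 0 and 4 below. Ryr3, a ryanodine receptor gene, had the highest of these differences, at 19.5 ± 1.25 CPM in mutants and 16.3 ± 2.14 CPM in wild type (log2 difference 0.27 ± 0.10, SE, limma adjusted p = 0.223). Bmpr1a, a BMP receptor gene that was not called, averaged 218 ± 19.1 CPM in mutants and 201 ± 14.2 CPM in wild type.

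**Figure D3:**
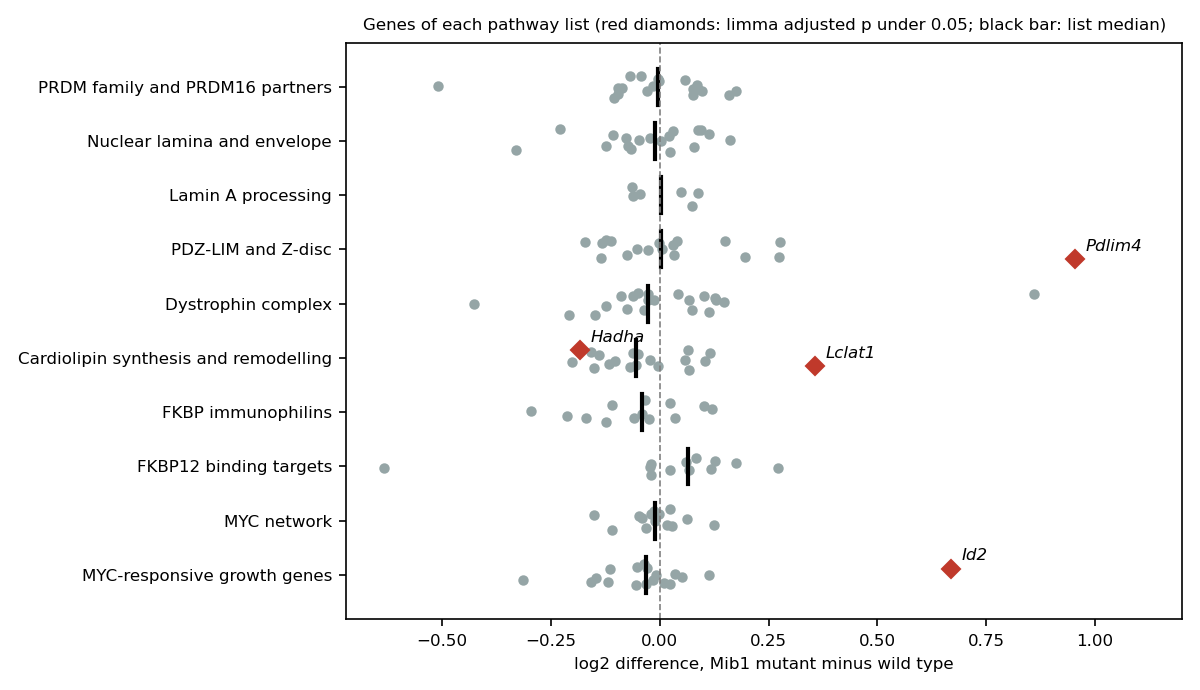
Log2 difference, Mib1 mutant minus wild type, of every tested gene in 10 lists built around the 7 genes, with genes at a limma adjusted p under 0.05 as red diamonds and the list median as a black bar. The called genes are Pdlim4, Lclat1, Id2 and Hadha, and the list medians lie between −0.05 and 0.06.

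Levels between genes were compared per kb of the longest coding transcript. Fkbp1a was highest, at 212 ± 9.29 CPM per kb in mutants and 204 ± 6.47 CPM per kb in wild type, followed by Ldb3 at 146 ± 7.42 and 149 ± 3.37 CPM per kb in mutants and in wild type. Lmna, at 26.0 ± 2.54 and 20.8 ± 1.59 CPM per kb, and Taz, at 20.0 ± 1.34 and 21.4 ± 1.61 CPM per kb in the same order, were neighbours that in wild type differed by less than their spread. Mycn followed at 15.8 ± 0.63 CPM per kb in mutants and 15.1 ± 0.56 CPM per kb in wild type. Prdm16 stood at 5.97 ± 0.51 CPM per kb in mutants and 4.88 ± 0.41 CPM per kb in wild type, and Dtna was lowest at 3.64 ± 0.37 CPM per kb in mutants and 3.17 ± 0.45 CPM per kb in wild type. With the median transcript length Ldb3 stood above Fkbp1a and Dtna above Prdm16, so the order within these pairs depends on which transcripts are made.

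Within gene families, Prdm16 made up 43.1 ± 2.37% of its summed level per kb with Mecom in mutants and 38.1 ± 1.81% in wild type (SD, n = 4 each), and every mutant library lay above every wild-type library. Mycn made up 63.3 ± 1.0% of the sum with Myc in mutants and 61.5 ± 2.51% in wild type. Dtna made up 47.6 ± 1.88% of the sum with Dtnb in mutants and 43.0 ± 3.60% in wild type. Ldb3 made up 68.7 ± 1.72% of the sum with Pdlim5 in mutants and 69.8 ± 0.85% in wild type. For Mycn, Dtna and Ldb3 the shares of the groups overlapped. These shares were described and not tested. The levels of Lmna and Prdm16, whose groups already did not overlap, enter their own shares, so these shares are no separate evidence.

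**Figure D4:**
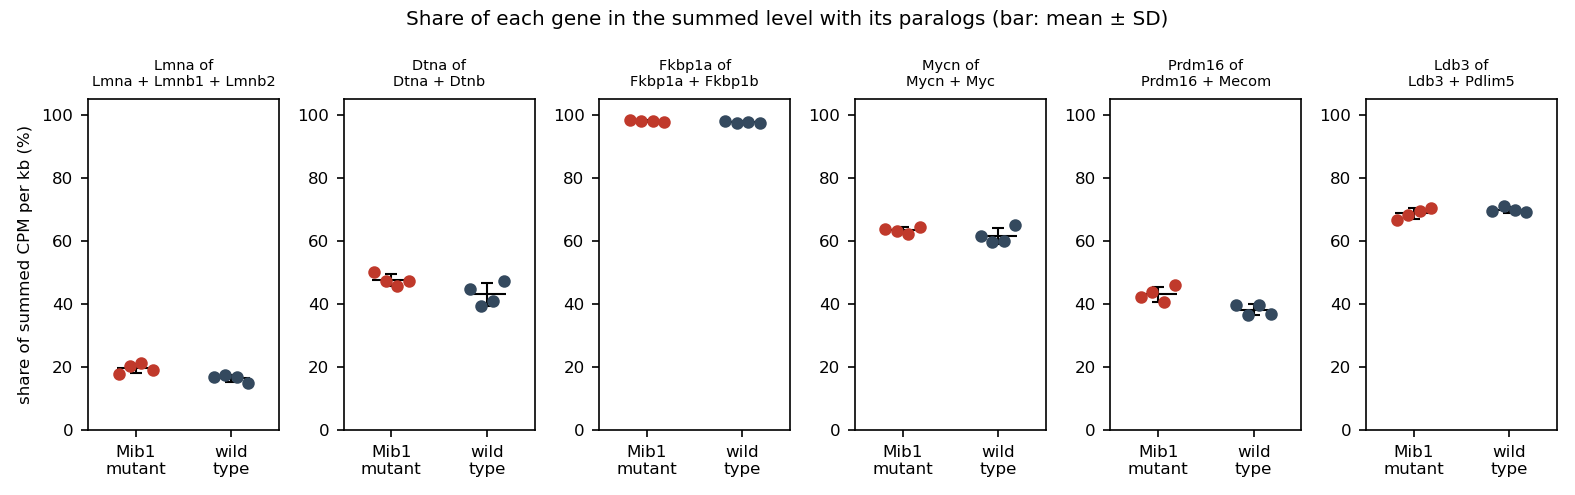
Share, in percent, of each gene in the summed CPM per kb of the gene and the paralogs named above each panel, by library (mutant red, wild type dark), with mean and SD as a bar. Groups do not overlap for Lmna and Prdm16 and overlap for the other 4.

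The genes whose log2 levels ran most like those of each member over the 8 libraries were found among 10753 others with a mean of at least 5 CPM. For Lmna they were Wnk2, Flvcr2 and Fstl3 (Pearson r of 0.978, 0.961 and 0.960), and for Prdm16 they were Traf3, Hip1 and Cap2 (r of 0.942, 0.942 and 0.932). Fstl3, which encodes a secreted inhibitor of activins, averaged 25.7 ± 3.0 CPM in mutants and 17.6 ± 1.44 CPM in wild type (log2 difference 0.54; limma adjusted p = 0.0103) and was the only one of these 6 that was called. The nearest to Ldb3 was Cav1 (r = 0.977), to Dtna Rbm41 (r = 0.968), to Fkbp1a Lysmd2 (r = 0.954) and to Mycn Slc31a2 (r = 0.964). The 8 libraries of both groups enter each r, so the difference between the groups is part of it, and the values are a description only. They are also the highest of 10753 values per member from only 8 libraries. How high r would run through this selection alone was not tested.

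Markers of other cell types differed between the same libraries. Of 10 smooth muscle and pericyte genes 2 rose and 1 fell, and their summed level was 1773 to 1887 CPM in mutant libraries and 1485 to 1670 CPM in wild-type libraries. Of 12 endothelial genes 3 fell, with sums of 1262.5 to 1318 CPM in mutants and 1444 to 1502 CPM in wild type, and of 12 macrophage genes 3 fell, with sums of 80.7 to 102 CPM in mutants and 118 to 144 CPM in wild type. Of 9 erythroid genes 2 fell, with sums of 1966 to 3228 CPM in mutants and 3002 to 4090 CPM in wild type. Of 12 fibroblast and cushion genes 1 fell, and of 10 epicardial genes none was called by limma or voom (3 at an unadjusted p under 0.05), and the sums of both lists overlapped between the groups. Of 10 atrial genes 1 rose and 2 fell, with sums of 1793 to 2143 CPM in mutants and 2501 to 2741 CPM in wild type. At an unadjusted p under 0.05, 8 of 12 endothelial, 9 of 12 macrophage and 6 of 9 erythroid genes were lower and none higher. Of the atrial genes 7 passed it (1 higher, 6 lower), and of the smooth muscle and pericyte genes 5 (3 higher, 2 lower). The fibroblast and cushion list held 2 (1 higher, 1 lower), and the share over all genes tested was 14.8%. All 12 endothelial and all 12 macrophage genes lay below 0. Cardiomyocyte markers summed to 38709 to 41741 CPM in mutants and 39915 to 44305 CPM in wild type, and none of 12 was called by limma, with 1 called by voom and 2 at an unadjusted p under 0.05. None of the markers measured was at 0 in all libraries. Of the markers listed, 4 of 10 for skeletal muscle, 9 of 12 erythroid and 10 of 11 atrial ones matched a gene of the deposited table. The others matched none, so their levels are not known here. Lmna and Prdm16 are known to be expressed in more than 1 of these cell types, and the part of these marker differences in their levels was not tested.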

How the data were processed

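Per the submitters' processing notes, the tools were cutadapt 1.2.1, RSEM 1.16, Bowtie2 0.12.7 (as named), limma and edgeR, with build mm9; RNA was polyadenylated and read from 1 end, per the labels. The authors deposited 1 table whose values are a score: each column holds log2 CPM, with a prior of 0.5 counts, times a constant that makes it sum to 1000000. Dividing by the constant, read from the spacing of the lowest values, gave log2 CPM, and 100% of values then gave whole counts (tolerance 0.001). The authors' gene filter, and whether counting used strand, are not stated by the labels.

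The genotypes were tested with limma 3.58.1 (R 4.3.3; eBayes with a trend, group as the only term) over the 13740 genes averaging 0 log2 CPM or more; two-sided p-values had Benjamini-Hochberg adjustment over all of them, and called under 0.05. Single genes also had an exact permutation test. Symbols came from GENCODE M21 (13428 of 13869 identifiers matched), lengths from its transcripts, and upstream sequences from RefSeq (GRCm38.p6), which listed 6 of the 7 members. Because the build differs, no gene coordinates are given apart from those of the RefSeq windows. The fit was also run on simulated counts, whose changes were set larger than the difference of any member. That run cannot tell how often differences of the members' size would be called.

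The members, lists and tests were chosen with earlier results of these data known. Named were Mib1, all members, their close paralogs, up to 4 called genes per list or the gene of smallest p, and up to 3 genes most like each member (that for Taz is not reported here); other genes named were chosen after their values were seen. Alternatives covered pseudocount, filter, scaling, variance model, voom weights, replicate block, threshold and each library left out. Libraries sharing a replicate number correlated at −0.04 to 0.10 after removal of group means, and were not treated as pairs.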

Additional observations from a re-analysis of the deposited data

Results flagged for a closer look

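Among 26 genes examined, with the libraries of each group taken separately (52 groups of 4), 2 groups held a library far from the others by Dixon's ratio; chance alone flags about 1 in 20 such groups. For Dtna, mutant replicate 1 stood at 26.36 CPM, from 299 counts, against 21.5 to 22.3 CPM in the other mutant libraries (ratio 0.836), and leaving it out moved the log2 difference to 0.14 (0.13 without wild-type replicate 2). For Ryr3, wild-type replicate 1 stood at 19.46 CPM, from 135 counts, against 15.0 to 15.4 CPM in the other wild-type libraries (ratio 0.901).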

How the results depend on the processing

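The differences of Ldb3, Dtna, Taz, Fkbp1a and Mycn stayed uncalled, and that of Mib1 called, under all 20 alternatives. Lmna, uncalled in the reported fit, was called with a pseudocount of 1 CPM (log2 difference 0.31) or 5 CPM (0.30), a filter at 5 CPM (0.32), the deposited constants left in place (0.33), robust eBayes (0.32) and the replicate block (0.32); each of these 6 gave 1 member called, and a threshold of 0.1 gave 2. Leaving out 1 library gave log2 differences of 0.26 to 0.38 for Lmna and 0.23 to 0.33 for Prdm16, and 0 to 1 members called. Over all genes, 136 higher and 172 lower calls became 70 and 109 with no trend, 252 and 299 at a threshold of 0.1, and 64 to 208 and 81 to 269 with a library left out (269 without mutant replicate 3, 81 without wild-type replicate 1). The Z-disc list had 0 calls under the filter at 5 CPM and the replicate block, 2 at 0.1, and 0 to 1 with a library left out. The cardiolipin list had 1 call with the constants left in place, with no trend and with the block, and 1 to 3 with a library left out. At a threshold of 0.1 the dystrophin list had 2 calls and the FKBP family 1, and the FKBP family had 0 to 2 with a library left out. The filter at 5 CPM removed Pdlim4, the called gene of the Z-disc list, from the test; the cause of the other changes was not tested. Same-numbered libraries correlated at −0.04 to 0.10, and 0 of 4 mutant and 1 of 4 wild-type libraries resembled their own number best. These values gave no sign of pairing by replicate number, although they cannot show that pools were unpaired. No scaling moved the median of all genes by 0.1. Wild-type counts of 10 to 15 for Pdlim4 and 13 to 16 for Sntg2 limit what can be read from those genes.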
